A study of Homo sapiens with 18 samples.

Results

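The genes described here are 10 markers and regulators of epithelial and mesenchymal cell state. They are the classical cadherins CDH1 (E-cadherin), CDH2 (N-cadherin) and CDH3 (P-cadherin), the epithelial adhesion molecule EPCAM, the intermediate filament gene VIM (vimentin), and the transcription factor genes SNAI1, SNAI2, ZEB1, ZEB2 and TWIST1. The members were chosen by gene name. They are 10 of the 36204 gene names on the array, measured by 27 of its 58717 non-control spots and by 18 of its 50599 different oligonucleotides.

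Cadherins are calcium-dependent adhesion proteins that join neighbouring cells, and E-cadherin, coupled to the actin cytoskeleton through catenins, is the main cadherin of the intestinal epithelium. In epithelial-mesenchymal transition (EMT), transcription factors of the SNAIL, ZEB and TWIST families bind E-box motifs and repress CDH1 and other epithelial genes, while vimentin and N-cadherin appear. EMT is studied in colorectal cancer (CRC) as one route by which tumour cells become motile or tolerate chemotherapy.

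RNA was measured on 18 one-colour Agilent arrays, 3 for each of 6 groups labelled as biological replicates. HT29 is an established CRC cell line sensitive to oxaliplatin (OXA), a platinum drug, and HTOXAR3 is the OXA-resistant subline derived from it, so that resistance is represented by a single derived line. Each line was left untreated per the labels, given OXA for 24 h, or given OXA together with 10 µM Curcumin, a plant polyphenol used in the study to block NF-κB. For the untreated groups the paper speaks of vehicle in its results and of no treatment in its array methods. The OXA dose was 10 µM in HT29 and 30 µM in HTOXAR3 (the IC50 dose of each line per the labels), so the treated lines differed in dose as well as in identity. Curcumin alone was not analysed here.

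The share of non-control spots read well above background ranged from 52.4%, in untreated HTOXAR3 replicate 2, to 63.6%. The correlation between arrays of one group was at least 0.985, and no spot of a member was saturated. Of 11 colorectal epithelium markers, 7 were well above background on all 18 arrays, and the log2 of their summed intensity, which the brightest probes set, lay between 19.30 and 19.57. Single markers differed between the lines: the untreated means in HT29 and HTOXAR3 were 14.97 and 12.89 for LGALS4, 12.06 and 10.45 for VIL1, 7.10 and 4.93 for CDX2, and 4.96 and 3.41 for CDH17, of which CDX2 was well above background on 10 arrays and CDH17 on 5. LGALS4, VIL1, CDX2 and CDH17 were named after their values were seen, and their part in the results below was not tested. In the same order, the other means were 15.86 and 16.03 for KRT8, 18.33 and 18.47 for KRT18, and 17.73 and 17.85 for KRT19. They were 13.44 and 13.42 for KRT20, 9.29 and 9.26 for CDX1, 5.63 and 5.35 for GPA33, and 6.72 and 5.52 for CEACAM5. Of 9 fibroblast markers none was well above background on all 18 arrays and 4 were below it on all 18. The arrays measured RNA of whole cultures, in which fewer cells expressing a gene and less RNA per cell cannot be told apart.

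Because the SNAIL and ZEB families act through the E-box CAGGTG, which reads CACCTG on the other strand, the promoter windows of some members were searched for it. RefSeq windows of 300 bases (250 before and 50 after a transcript start, GRCh38.p14) were searched for VIM, CDH2, ZEB1 and ZEB2. No window was at hand for CDH1, CDH3, EPCAM, SNAI1 and TWIST1, so the CDH1 promoter was not searched, and SNAI2 was not searched either. Of 35116 such windows over all genes 20.6% held the motif on either strand. The VIM window, those of CDH2 and that of ZEB2 held none. ZEB1 had more windows than these genes, 7 in all. The one below, chosen because it held the most matches, held 3, 1 other held 1 and the rest held none. The sequences of VIM and ZEB1 are shown because these genes differed between groups, as described further on. Only the 250 bases before the start are printed, with the motif on either strand in capitals, and 2 of the 3 ZEB1 matches lie in them.
VIM, chr10:17227991-17228240, + strand: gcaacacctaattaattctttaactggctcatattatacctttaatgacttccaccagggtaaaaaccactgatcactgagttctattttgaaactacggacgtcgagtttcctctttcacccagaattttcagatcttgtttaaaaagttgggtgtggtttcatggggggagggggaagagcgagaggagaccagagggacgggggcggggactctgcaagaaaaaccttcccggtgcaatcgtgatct
ZEB1, chr10:31318966-31319215, + strand: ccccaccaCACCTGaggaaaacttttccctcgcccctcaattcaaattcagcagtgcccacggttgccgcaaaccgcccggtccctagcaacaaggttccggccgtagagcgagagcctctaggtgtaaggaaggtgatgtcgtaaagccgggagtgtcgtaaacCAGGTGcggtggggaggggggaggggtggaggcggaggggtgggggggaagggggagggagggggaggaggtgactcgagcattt
A match is a string of letters and not a measured binding site, and the windows bear no measurement in these data. The more general E-box CANNTG, which includes the motif above, was present in 68.7% of all windows.

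Detection set how much could be compared for each gene. The probes of CDH1, CDH2, CDH3, EPCAM, SNAI1 and VIM were well above background on all 18 arrays. The ZEB1 probe passed on 16 arrays, the ZEB2 probe on 10, the SNAI2 probe on 5 and the brightest TWIST1 probe on 1. Among the further probes, the CDH2 and ZEB2 alternatives passed on no array, the second ZEB1 probe on 1, and the other probe of the TWIST1 mRNA (NM_000474) on none. A further 3 probes that carry the name TWIST1 are placed by the files on another transcript (XR_428085, chr7:19039443-19039901, GRCh37) and passed on 0 or 1 array. The intensities of different probes cannot be set against each other, so levels are compared below only between groups for one probe.

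**Figure D1:**
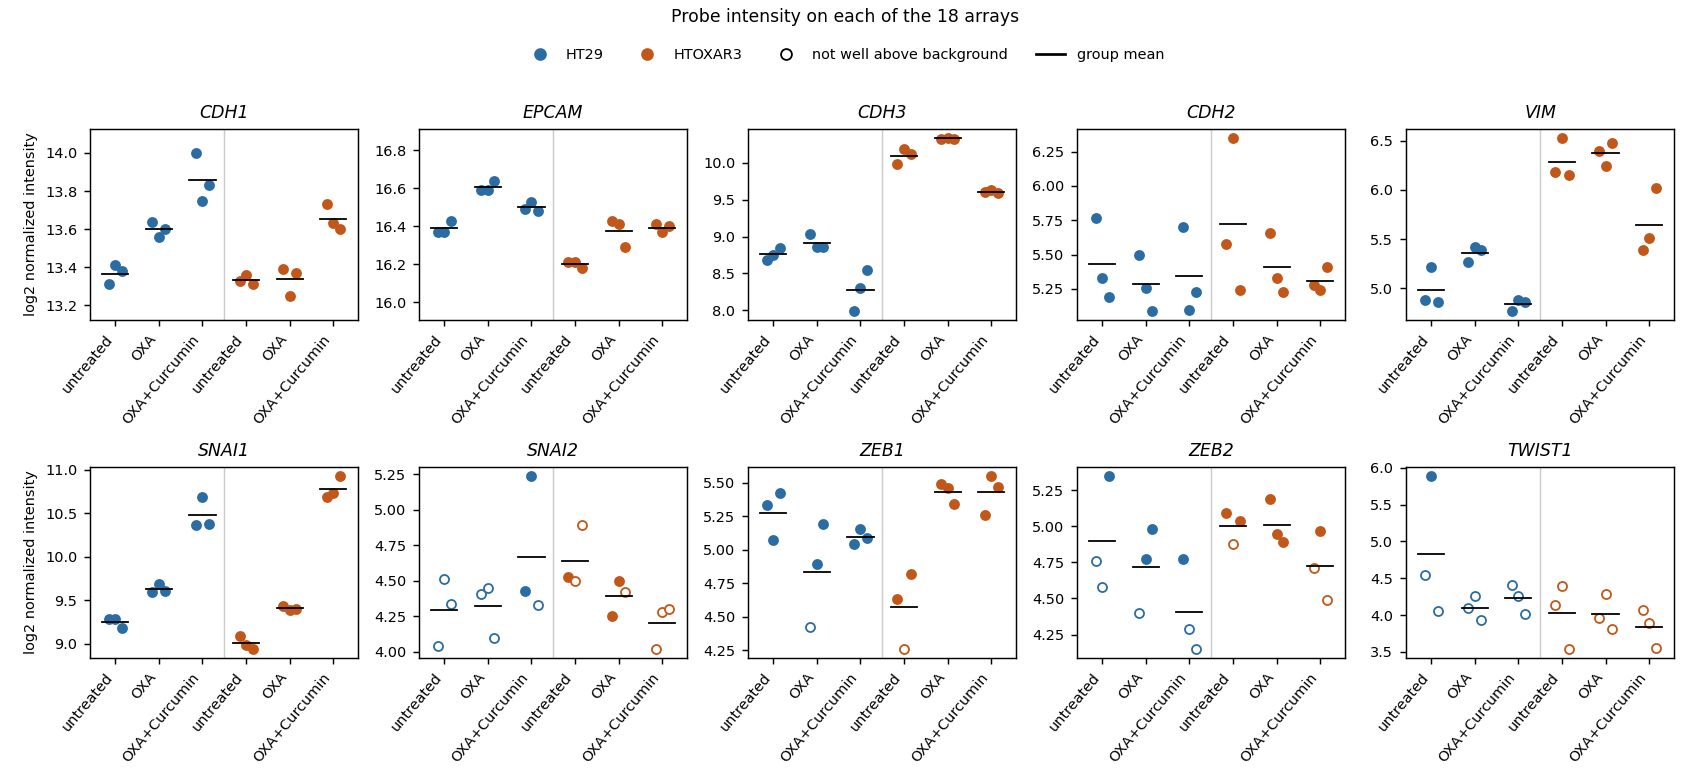
Log2 normalized intensity (vertical axis, a separate scale for each gene) of the brightest probe of each of the 10 genes on all 18 arrays, by cell line and treatment. Filled points are arrays on which the probe was well above background, open points are arrays on which it was not, and bars are means of 3 arrays. CDH3 and VIM lie higher in HTOXAR3 than in HT29 without treatment, SNAI1 is highest under OXA plus Curcumin in both lines, and most TWIST1 and SNAI2 points are open.

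The first question was how the resistant line differs from its parental line before treatment. CDH3 and VIM were higher in HTOXAR3, and no other member passed the test. These 2 of 10 members stand beside 11.5% of all 36204 gene names called in this comparison. A gene was called where limma gave a Benjamini-Yekutieli adjusted p below 0.05, taken over all gene names, and the fold difference exceeded 1.2.

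P-cadherin is the placental cadherin, present in few cells of the normal colon and often raised in colorectal tumours. The CDH3 probe (A_23_P49155, chr16:68732812-68732871, GRCh37) read 8.68, 8.75 and 8.85 in untreated HT29 on the log2 scale. In untreated HTOXAR3 it read 9.98, 10.19 and 10.12. All arrays of the resistant line lay above all arrays of the parental line. The difference was 1.34 ± 0.11 (log2, SE), or 2.52-fold, with a limma adjusted p of 8.26e-06, and within single slides it was 1.27 to 1.34. It remained under OXA, where it was 1.42 ± 0.11 (limma adjusted p = 3.79e-06), and under OXA plus Curcumin, where it was 1.32 ± 0.11 (limma adjusted p = 8.21e-06). None of the 3 CDH3 calls was lost under any setting tried.

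Vimentin is the intermediate filament of mesenchymal cells. The VIM oligonucleotide (A_23_P161190) is placed by the deposited files at chr10:17278347-17279256 (GRCh37), a span of 910 bases for an oligonucleotide of 60. It read 4.88, 5.22 and 4.86 in untreated HT29 and 6.18, 6.53 and 6.15 in untreated HTOXAR3. The groups did not overlap, and the difference was 1.30 ± 0.15 (log2, SE) or 2.47-fold (limma adjusted p = 0.00025). Under OXA it was 1.02 ± 0.15 (limma adjusted p = 0.00201). Under OXA plus Curcumin it was 0.80 ± 0.15 (limma adjusted p = 0.0146), and 4 of the 6 fits that left out 1 array of these groups lost that call. With the processed signal the calls under OXA (limma adjusted p = 0.0547) and under OXA plus Curcumin (limma adjusted p = 0.0962) were lost. The probe lay low in the range of the array, and the untreated difference ran from 0.65 with an offset of 50 in the background correction to 1.86 with the processed signal.

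E-cadherin itself did not separate the untreated lines. The CDH1 probe (A_23_P206359, chr16:68869214-68869273, GRCh37) was spotted 10 times on each array, with an SD over spots of 0.049 to 0.097 log2 units. Its readings were 13.31, 13.41 and 13.38 in untreated HT29 and 13.33, 13.36 and 13.31 in untreated HTOXAR3. The groups overlapped, the difference was -0.03 ± 0.07, and its 95% interval was -0.18 to 0.12. EPCAM read 16.37 to 16.43 in untreated HT29 and 16.18 to 16.21 in untreated HTOXAR3, a difference of -0.19 ± 0.05 that did not pass (limma adjusted p = 0.158). Under OXA the EPCAM difference was -0.23 (limma adjusted p = 0.0419), yet at 1.17-fold it fell short of the fold minimum.

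Among the transcription factor genes none was called between the untreated lines. SNAI1 (A_23_P131846, chr20:48605170-48605229, GRCh37) read 9.29, 9.28 and 9.18 in HT29 and 9.09, 8.98 and 8.94 in HTOXAR3, a difference of -0.25 ± 0.09 (limma adjusted p = 0.737). ZEB1 (A_33_P3374723, chr10:31818063-31818122, GRCh37) read 5.33, 5.07 and 5.42 in HT29 and 4.63, 4.26 and 4.82 in HTOXAR3. These groups did not overlap, one HTOXAR3 array was not well above background, and the difference of -0.70 ± 0.18 did not pass (limma adjusted p = 0.112). It would pass with the Benjamini-Hochberg adjustment (adjusted p = 0.0101), with dim gene names left out (adjusted p = 0.0467) or with the processed signal (adjusted p = 0.0467), each by limma. ZEB2 differed by 0.11 ± 0.21, with a 95% interval of -0.35 to 0.57.

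SNAI2 was not well above background on any untreated HT29 array and TWIST1 on none of untreated HTOXAR3, so neither difference was measured on both sides. The TWIST1 mean of untreated HT29, 4.83 ± 0.95 (SD, n = 3), came from a single array at 5.89, and the others, at 4.54 and 4.05, were not well above background. SNAI2 was above background on 1 of 3 untreated HTOXAR3 arrays. No fold is given for either gene, and neither difference passed (limma adjusted p = 1). N-cadherin, the cadherin that carcinoma cells gain in EMT, read 5.19 to 5.77 in untreated HT29 and 5.24 to 6.35 in untreated HTOXAR3 on its brighter probe (A_33_P3214159, chr18:25530936-25530995, GRCh37). The highest CDH2 reading was that of replicate 2, the array with the lowest share of spots above background, and the difference of 0.29 ± 0.25 did not pass.

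When both lines had received OXA, 2 of 10 members were called beside 14.1% of all gene names, and with OXA plus Curcumin in both lines 2 of 10 beside 13.9%. They were CDH3 and VIM each time. ZEB1 had turned to the other side, with a difference of 0.60 ± 0.18 under OXA (limma adjusted p = 0.251) and of 0.33 ± 0.18 under OXA plus Curcumin (limma adjusted p = 1), although neither value was called.

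**Figure D2:**
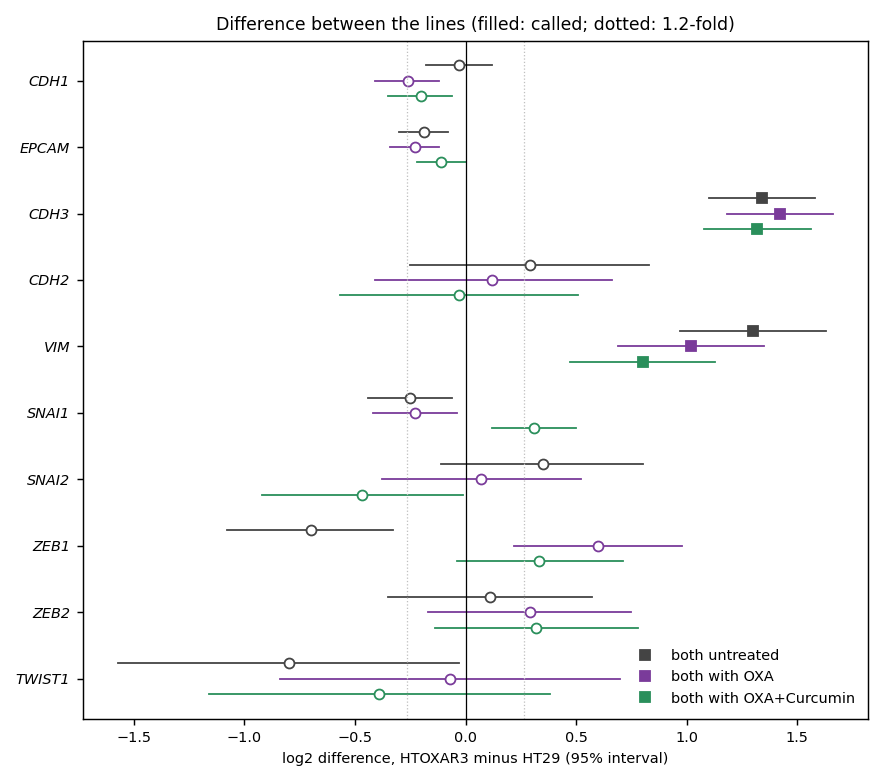
Log2 difference between HTOXAR3 and HT29 (horizontal axis, positive where HTOXAR3 is higher) for the 10 genes, with 95% intervals, when both lines were untreated, given OXA or given OXA plus Curcumin. Filled squares are called differences and dotted lines mark a 1.2-fold difference. CDH3 stays between 1.32 and 1.42, VIM runs from 1.30 to 0.80, and ZEB1 changes side from -0.70 to 0.60.

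The second question was what OXA did within each line. In HT29 SNAI1 alone was called, 1 of 10 members beside 15.9% of all gene names, and in HTOXAR3 SNAI1 and ZEB1 were called, 2 of 10 beside 10.2%. Both changes were increases. SNAI1, the gene of the zinc-finger repressor Snail, rose in HT29 from 9.29, 9.28 and 9.18 to 9.60, 9.69 and 9.61. In HTOXAR3 it rose from 9.09, 8.98 and 8.94 to 9.43, 9.39 and 9.40. All OXA arrays lay above all untreated arrays of the same line.

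The SNAI1 increase was 0.39 ± 0.09 in HT29, or 1.31-fold (limma adjusted p = 0.0488), and 0.41 ± 0.09 in HTOXAR3, or 1.32-fold (limma adjusted p = 0.0492). Both sit at the edge of the threshold. In either line the call was lost when any single array was left out and when replicate number was a block (limma adjusted p = 0.0817 in HT29 and 0.0832 in HTOXAR3), while the size stayed between 0.31 and 0.43 in HT29 and between 0.37 and 0.45 in HTOXAR3. The difference between the lines in this response was 0.02 ± 0.13, with a 95% interval of -0.25 to 0.29.

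ZEB1, a zinc-finger and homeobox repressor of CDH1, rose in HTOXAR3 from 4.63, 4.26 and 4.82 to 5.49, 5.46 and 5.34. The groups did not overlap. The increase was 0.86 ± 0.18 (log2, SE) or 1.82-fold (limma adjusted p = 0.0303). Of the 6 fits that left out 1 array, 1 kept the call, and within single slides the value was 0.58 and 1.05. The size depended on the background correction, at 0.57 with an offset of 16, 0.33 with an offset of 50 and 1.08 with the processed signal, and the call was lost with 75th percentile scaling (0.69, limma adjusted p = 0.0507). In HT29 ZEB1 read 5.33, 5.07 and 5.42 untreated and 4.42, 4.89 and 5.19 under OXA, the first of which was not well above background. That difference was -0.44 ± 0.18 (limma adjusted p = 1).

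The response of ZEB1 to OXA thus differed between the lines by 1.30 ± 0.25, which the interaction test did not call (limma Benjamini-Yekutieli adjusted p = 0.108, Benjamini-Hochberg adjusted p = 0.00977). Without HT29 OXA replicate 3 it was called, at 1.48 (limma adjusted p = 0.0361), as it was with dim gene names left out (limma adjusted p = 0.0379). No member was called by limma in the interaction of line and OXA, where 1.01% of all gene names were. An unadjusted limma p below 0.05 was found for 2 of 10 members, beside 4944 of 36203 gene names. By the Benjamini-Hochberg adjustment 1 member, ZEB1, was called, beside 1087 of 36203 gene names. The ZEB1 window printed above lies upstream of a gene whose probe was near background in both lines, and the second ZEB1 probe passed on 1 array of 18.

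The epithelial genes moved little with OXA. CDH1 differed by 0.24 ± 0.07 in HT29 (limma adjusted p = 0.222) and by 0.00 ± 0.07 in HTOXAR3, with a 95% interval of -0.14 to 0.15. EPCAM was higher by 0.21 ± 0.05 in HT29 (limma adjusted p = 0.0579) and by 0.18 ± 0.05 in HTOXAR3 (limma adjusted p = 0.254). CDH3 differed by 0.16 ± 0.11 and 0.24 ± 0.11, and VIM by 0.37 ± 0.15 and 0.09 ± 0.15, in HT29 and HTOXAR3 in that order. None of these values passed.

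The third question was what the addition of Curcumin to OXA changed. SNAI1 rose and CDH3 fell in both lines, and VIM fell in HTOXAR3. These were 2 of 10 members in HT29 beside 5.53% of all gene names, and 3 of 10 in HTOXAR3 beside 8.83%.

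SNAI1 rose in HT29 from 9.60, 9.69 and 9.61 under OXA to 10.36, 10.69 and 10.38 under OXA plus Curcumin. The increase was 0.84 ± 0.09 or 1.79-fold (limma adjusted p = 0.000292). In HTOXAR3 it rose from 9.43, 9.39 and 9.40 to 10.69, 10.73 and 10.93, an increase of 1.38 ± 0.09 or 2.60-fold (limma adjusted p = 2.86e-06). Neither pair of groups overlapped, and leaving out any single array kept both calls. The difference between the lines, 0.54 ± 0.13, did not pass the interaction test (limma adjusted p = 0.75).

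CDH3 fell in HT29 from 9.03, 8.86 and 8.86 to 7.99, 8.30 and 8.55. The change was -0.64 ± 0.11 or 1.56-fold lower (limma adjusted p = 0.0174), within single slides it was -0.72 and -0.31, and it lost its call in 4 of the 6 fits without 1 array and with slide as a block (limma adjusted p = 0.0568). In HTOXAR3 CDH3 fell from 10.33, 10.34 and 10.33 to 9.60, 9.63 and 9.59. The change there was -0.73 ± 0.11 or 1.66-fold lower (limma adjusted p = 0.00411), and all fits without 1 array kept it. The HTOXAR3 arrays of each group agreed within 0.02 log2 units (SD), whereas the HT29 arrays with Curcumin varied by 0.28. The difference in CDH3 response between the lines was -0.09 ± 0.16, with a 95% interval of -0.43 to 0.25.

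VIM in HTOXAR3 read 6.40, 6.24 and 6.48 under OXA and 5.39, 5.51 and 6.02 under OXA plus Curcumin. The groups did not overlap, although replicate 3 of the combination stood apart from the other two. The change was -0.74 ± 0.15 (limma adjusted p = 0.0411). In this comparison same-numbered arrays shared a slide and varied together, and with replicate number as a block the call was lost (limma adjusted p = 0.0513), as it was with slide as a block (limma adjusted p = 0.0728) and in 5 of the 6 fits without 1 array. The processed signal (-0.85 ± 0.27, limma adjusted p = 0.461) and 75th percentile scaling (limma adjusted p = 0.112) ended it too. In HT29 the VIM difference was -0.52 ± 0.15 (limma adjusted p = 0.444), from 5.27, 5.42 and 5.39 to 4.77, 4.88 and 4.86.

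For CDH1 the difference with added Curcumin was 0.26 ± 0.07 in HT29 (limma adjusted p = 0.271) and 0.32 ± 0.07 in HTOXAR3 (limma adjusted p = 0.0554), and neither was called. In HTOXAR3 the arrays did not overlap, with 13.39, 13.25 and 13.37 under OXA and 13.73, 13.63 and 13.60 under the combination, and 6 of the settings tried gave a call. EPCAM differed by -0.10 ± 0.05 in HT29 and by 0.02 ± 0.05 in HTOXAR3, with 95% intervals of -0.21 to 0.01 and -0.09 to 0.12. ZEB1 differed by 0.26 ± 0.18 and -0.01 ± 0.18.

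No member was called in the interaction of line and added Curcumin by limma with either adjustment. Of all gene names 0.135% were called with the Benjamini-Yekutieli adjustment, and 323 gene names with the Benjamini-Hochberg adjustment. An unadjusted limma p below 0.05 was found for 1 of 10 members, SNAI1, beside 3526 of 36203 gene names.

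**Figure D3:**
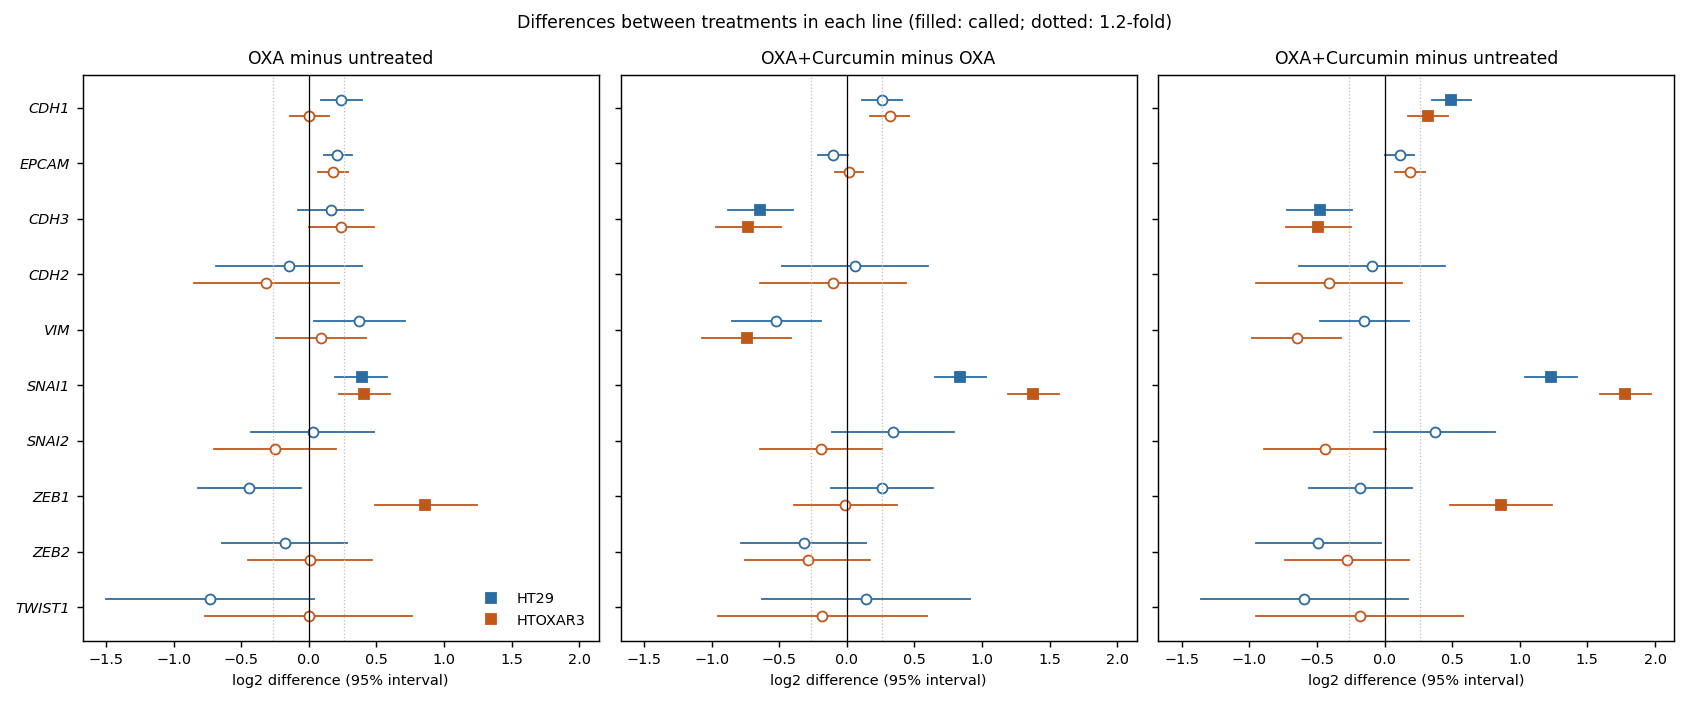
Log2 difference (horizontal axis) of the 10 genes with 95% intervals in HT29 (blue) and HTOXAR3 (orange) for OXA against untreated, OXA plus Curcumin against OXA, and OXA plus Curcumin against untreated. Filled squares are called differences and dotted lines mark 1.2-fold. SNAI1 lies to the right in all panels, up to 1.78 in HTOXAR3, while CDH3 lies to the left wherever Curcumin was added, between -0.73 and -0.48.

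Against untreated cells the combination changed 3 of 10 members in HT29 beside 18.6% of all gene names, and 4 of 10 in HTOXAR3 beside 17.5%. These comparisons share their groups with the 2 preceding ones and are not independent of them. SNAI1 was higher by 1.23 ± 0.09 in HT29, or 2.34-fold (limma adjusted p = 1.35e-06), and by 1.78 ± 0.09 in HTOXAR3, or 3.45-fold (limma adjusted p = 6.49e-08). Both calls held in all settings tried. The ranking of the SNAI1 group means was the same in each line, from untreated through OXA to OXA plus Curcumin, and each step was called.

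CDH1 rose together with SNAI1. In HT29 it went from 13.31, 13.41 and 13.38 to 14.00, 13.75 and 13.83, an increase of 0.49 ± 0.07 or 1.41-fold (limma adjusted p = 0.00072) that held without any single array. In HTOXAR3 it went from 13.33, 13.36 and 13.31 to 13.73, 13.63 and 13.60, an increase of 0.32 ± 0.07 or 1.25-fold (limma adjusted p = 0.0285). No array of the combination overlapped the untreated ones in either line. The HTOXAR3 call was lost in each of the 6 fits without 1 array, with values of 0.28 to 0.35. Snail is known as a repressor of CDH1, and here both genes read highest in the same groups.

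CDH3 was lower than in untreated cells, with a change of -0.48 ± 0.11 in HT29 (limma adjusted p = 0.047) and of -0.49 ± 0.11 in HTOXAR3 (limma adjusted p = 0.0419). Its call was kept in 1 of 6 fits without 1 array in HT29 and in 0 of 6 in HTOXAR3, and was lost with replicate number as a block in both. In HT29 it was also lost with the processed signal (limma adjusted p = 0.0858), with 75th percentile scaling (limma adjusted p = 0.0691), with the mean of all probes (limma adjusted p = 0.0501) and with slide as a block (limma adjusted p = 0.125). CDH3 under the combination in HTOXAR3, 9.61 ± 0.02 (SD, n = 3), was still above every HT29 group, the highest of which was 8.92 ± 0.10 under OXA.

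ZEB1 in HTOXAR3 was higher than in untreated cells by 0.86 ± 0.18 (limma adjusted p = 0.02), at 5.26, 5.55 and 5.47, and lost its call in 4 of the 6 fits without 1 array. It was 0.56 with an offset of 16, 0.33 with an offset of 50 and 1.15 with the processed signal. In HT29 the value was -0.18 ± 0.18. VIM in HTOXAR3 was at -0.65 ± 0.15 (limma adjusted p = 0.0568) and in HT29 at -0.15 ± 0.15. ZEB2, CDH2, SNAI2 and TWIST1 gave no called value in any comparison.

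No member was called by limma in the interaction of line and OXA plus Curcumin, beside 0.856% of all gene names. An unadjusted limma p below 0.05 was found for 4 of 10 members, beside 5202 of 36203 gene names. With the Benjamini-Hochberg adjustment 2 members were called, beside 1244 of 36203 gene names. They were SNAI1 (0.56 ± 0.13, limma adjusted p = 0.0258) and ZEB1 (1.04 ± 0.25, limma adjusted p = 0.0359), both in the direction of a larger increase in HTOXAR3.

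**Figure D4:**
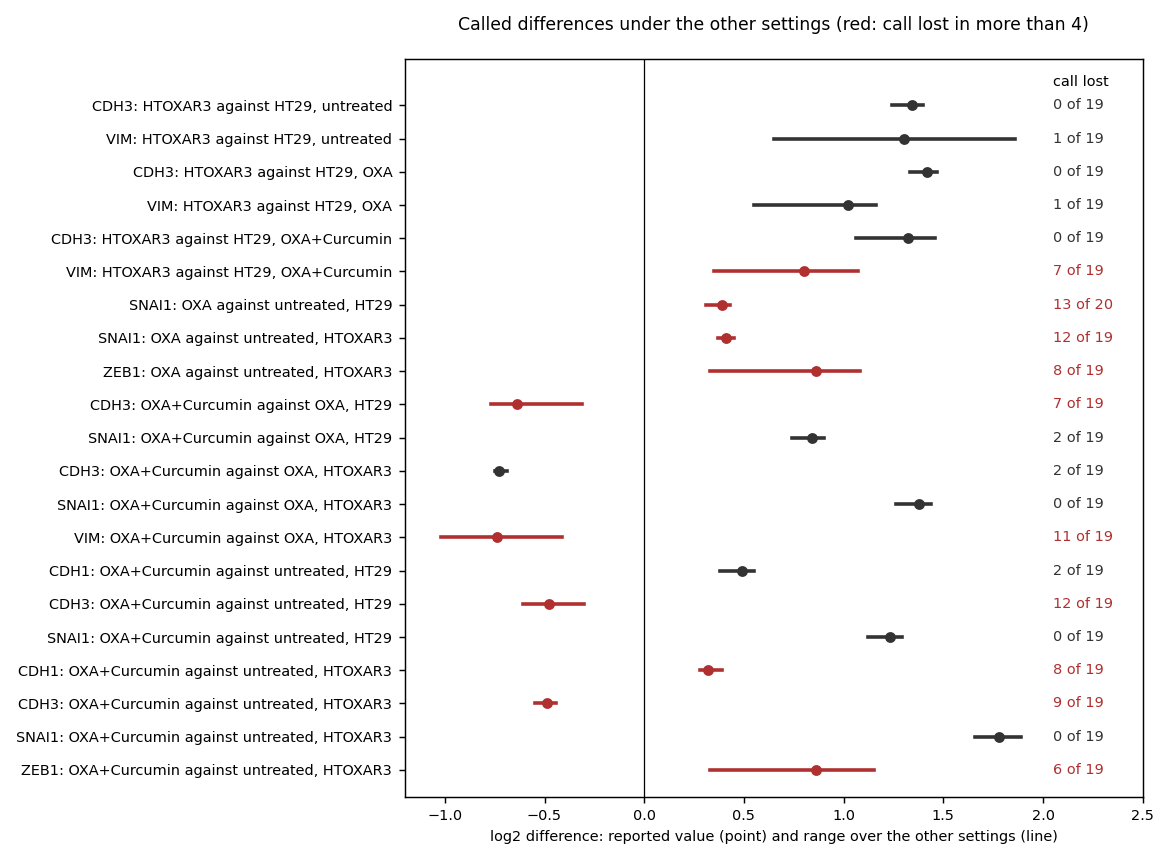
The 21 called differences of members, with the reported log2 difference (point), its range over the other settings (line) and, at the right, the number of settings in which the call was lost, in red where that number exceeds 4. No line crosses 0, and the SNAI1 increases with Curcumin and the CDH3 difference between the lines stay far from it.

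Other genes of adhesion and EMT were taken from 6 lists with 117 genes, all of which had a probe on the array. Not all were detected: LOX, LOXL2, POSTN and FBN1, among others, were well above background on 0 of 18 arrays. The counts and medians of the lists include such genes, for which no change could be measured. Between the untreated lines the lists together had 18 genes higher in HTOXAR3 and 10 lower, beside 11.5% of all gene names called. Mesenchymal products, 27 genes of matrix, cytoskeleton and motility, had 1 higher and 0 lower in that comparison, with a median of -0.01, against a median of -0.03 over all gene names. The gene that rose was COL5A2, a fibrillar collagen chain, by 1.11 ± 0.14 (limma adjusted p = 0.000424). Of 18 other EMT transcription factors 4 were higher and 2 lower. Among them TCF4, a bHLH factor that can repress CDH1, was higher in HTOXAR3 by 1.83 ± 0.19 (limma adjusted p = 8.86e-05), with 1 of 3 HT29 arrays above background, and SNAI3 by 1.09 ± 0.17 (limma adjusted p = 0.00277).

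Line differences above 2 log2 units were found among the epithelial factors and the other cadherins. ELF5, an ETS factor of glandular epithelium, read 8.52 to 8.88 in untreated HT29 and 11.04 to 11.08 in untreated HTOXAR3, and was higher by 2.35 ± 0.08 (limma adjusted p = 6.65e-10). GATA6, a zinc-finger factor of endodermal epithelium, read 11.79 to 11.86 and 10.52 to 10.59, a difference of -1.26 ± 0.05 (limma adjusted p = 2.39e-09). Over this list of 19 genes 4 were higher and 3 lower.

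CDH26, a cadherin described in epithelia with eosinophilic inflammation, read 7.14 to 7.50 in untreated HTOXAR3 and was higher there (limma adjusted p = 2.03e-08). It was not well above background on any untreated HT29 array, so only an approximate bound, of 7.13-fold, is given. In HTOXAR3 it fell by 1.13 on the log2 scale under OXA (limma adjusted p = 0.000732) and by 1.43 under the combination (limma adjusted p = 3.63e-05). Among the 20 other cadherins 1 was higher and 1 lower. TSPAN8, a tetraspanin found in complexes with EPCAM and CD44, read 14.69 to 14.74 in HT29 and 13.29 to 13.44 in HTOXAR3, a difference of -1.35 ± 0.07 (limma adjusted p = 3.41e-08). The list of 10 EPCAM partners had 3 higher and 1 lower, and the 23 adherens junction partners 5 higher and 3 lower.

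**Figure D5:**
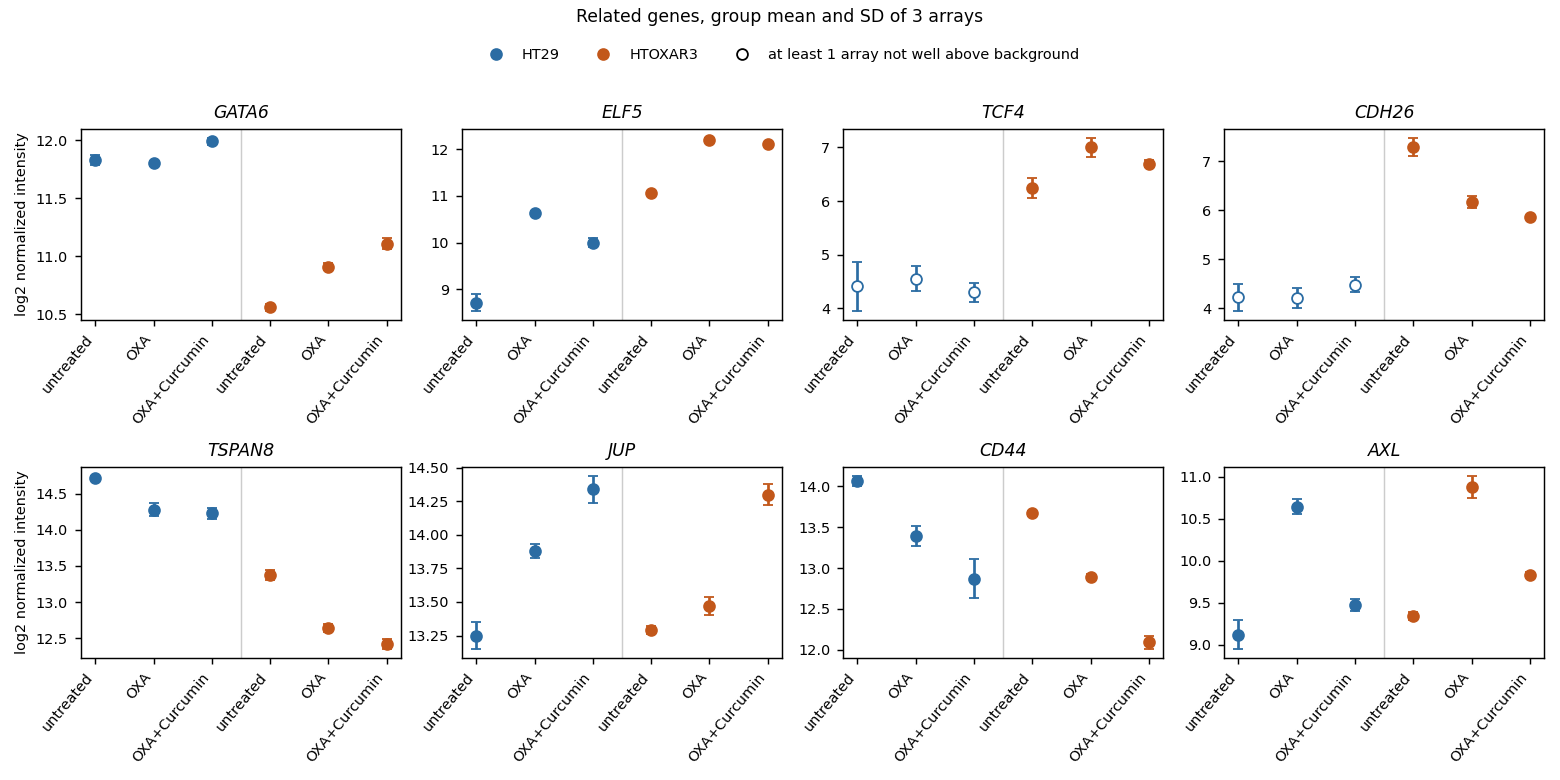
Log2 normalized intensity (vertical axis, a separate scale for each gene) of 8 genes related to the members, as group mean with SD of 3 arrays in HT29 (blue) and HTOXAR3 (orange). GATA6 and TSPAN8 are lower and ELF5, TCF4 and CDH26 higher in HTOXAR3, JUP is highest and CD44 lowest under OXA plus Curcumin in both lines, and AXL peaks under OXA.

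OXA raised AXL, a receptor tyrosine kinase counted among the mesenchymal products, in both lines. AXL read 8.99 to 9.31 in untreated HT29 and 10.55 to 10.72 under OXA, an increase of 1.51 ± 0.09 (limma adjusted p = 1.63e-07). In HTOXAR3 the increase was 1.54 ± 0.09 (limma adjusted p = 6.1e-07). With Curcumin added it fell by 1.16 on the log2 scale in HT29 and by 1.04 in HTOXAR3 (limma adjusted p = 1.79e-05 and 2.6e-05). VCL, the junctional actin linker vinculin, rose under OXA in HT29 by 1.22 ± 0.06 (limma adjusted p = 8.36e-08), and GRHL3, a grainyhead factor of epithelia, by 1.41 ± 0.10 (limma adjusted p = 1.02e-06). In HTOXAR3 the means under OXA were also higher than untreated, at 12.53 and 11.74 for VCL and 9.87 and 8.95 for GRHL3.

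On addition of Curcumin in HTOXAR3 the mesenchymal list had 0 higher and 6 lower of 27, with a median of -0.24, and the list of epithelial transcription and splicing factors had 6 higher and 0 lower of 19, with a median of 0.20. The median over all gene names was -0.022, and 8.83% of them were called. Among the genes that fell were ACTA2 (-1.38), AXL (-1.04), TNC (-0.91), COL5A2 (-0.75) and S100A4 (-0.51). Those that rose were GRHL3 (1.10), ESRP2 (0.89), ELF3 (0.76), OVOL1 (0.55), ESRP1 (0.43) and GRHL1 (0.34). ESRP1 and ESRP2 are the epithelial splicing regulators, and OVOL1 and the grainyhead factors maintain epithelial identity. Those below 1 in size are named after their values were seen. In HT29 the mesenchymal list had 0 higher and 3 lower, with a median of -0.02, and the epithelial list 3 higher and 1 lower, with a median of 0.10, beside 5.53% of all gene names called. Against untreated HTOXAR3 the combination had 7 higher and 2 lower in the epithelial list (median 0.04). The mesenchymal list had 1 higher and 4 lower (median -0.03), beside 17.5% of all gene names called. The ESRP1 means untreated, under OXA and under the combination were 10.35, 9.63 and 10.06, and those of ELF3 13.32, 12.48 and 13.24. Neither exceeded untreated, while the means of GRHL3, ESRP2, OVOL1 and GRHL1 did.

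Of the 10 EPCAM partners, 6 were higher and 2 lower under the combination than untreated in HT29, beside 18.6% of all gene names called, and 7 were higher and 2 lower in HTOXAR3, beside 17.5%. SPINT1, a membrane protease inhibitor of epithelia, rose by 1.19 ± 0.07 in HT29 (limma adjusted p = 2.32e-07) and by 1.04 ± 0.07 in HTOXAR3 (limma adjusted p = 1.1e-06). CD44, the hyaluronan receptor, fell by 1.2 on the log2 scale in HT29 (limma adjusted p = 4.78e-06) and by 1.58 in HTOXAR3 (limma adjusted p = 4.87e-07). JUP, encoding plakoglobin, which links cadherins to the cytoskeleton, rose by 1.09 ± 0.07 and 1.01 ± 0.07 in HT29 and HTOXAR3 (limma adjusted p = 5.02e-07 and 1.35e-06). TNC, the matrix protein tenascin C, was lower, at -1.37 ± 0.17 and -1.28 ± 0.17 (limma adjusted p = 0.000191 and 0.00038).

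For COL1A1, CDH16, FERMT2, CDH15 and LUM the dimmer group was not well above background on any array, so their folds are approximate bounds. Under OXA in HT29 the bound was 1.99-fold higher for COL1A1 and 1.86-fold higher for CDH16. FERMT2 under OXA was higher in HTOXAR3 than in HT29, with a bound of 2.09-fold. CDH15 was higher with the combination than untreated, with bounds of 1.93-fold in HT29 and 1.60-fold in HTOXAR3. LUM, a fibroblast proteoglycan, was higher in HT29 than in HTOXAR3 under the combination. Its bound was 2.65-fold, with readings of 5.04 to 6.87 in HT29. FOSL1, an AP-1 subunit, was higher by 1.02 ± 0.07 in HTOXAR3 with the combination than untreated (limma adjusted p = 7.16e-07). Its HTOXAR3 mean was 9.71 untreated, 10.62 under OXA alone and 10.73 under the combination.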

How the data were processed

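Total RNA of 18 cultures had been labelled with Cy3 and hybridised to 18 Agilent arrays, and groups and replicates were taken as labelled. The authors deposited Agilent Feature Extraction output (version 10.7.3.1, per the file headers) in which the mean spot signal and median local background are linear intensities without normalization between arrays. The authors' normalized log2 table, whose running numbers could not be matched to probes, was not used here.

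The intensities were background-corrected with normexp (offset 0), quantile-normalized and expressed as log2 in limma 3.58.1 under R 4.3.3. Control spots and outlier flags were left out, spots of a probe averaged, and the probe with the highest mean kept for each gene name. A model with 6 group terms was fitted to all 18 arrays, for 9 differences and 3 interactions, with Benjamini-Yekutieli adjustment over all gene names and a fold minimum of 1.2, the thresholds of the methods. The offset was not given in the sources used here. On data simulated for the untreated line comparison (36057 genes), 35.4% of 65 changes of 1.5-fold, 47.5% of 61 of 2-fold and 77% of 74 of 4-fold were recovered, with 0 unchanged genes called. The data themselves had 4177 gene names called in that comparison. The adjusted threshold depends on how many genes change, so these rates do not carry over to the data. Where all arrays of a group fell short of well above background, only a bound was given. On each array it was taken against the higher of the probe's own reading and the lowest signal well above background. A probe not well above background could itself read above that lowest signal, so the bounds are approximate. No fold was given where the brighter group was not above background on all 3 arrays. The number of arrays limits the precision. Probe positions are those of the deposited files (GRCh37), and exon positions were not analysed here. Oligonucleotides of related members (CDH1, CDH2 and CDH3, SNAI1 and SNAI2, ZEB1 and ZEB2) matched at no more than 22 of 60 bases without gaps.

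The members, the 6 gene lists, the marker lists and the tests were chosen with earlier results of these data known. Named genes were all members with every probe, and from each list at most the 3 largest called differences per comparison of at least 1 log2 unit whose brighter group was well above background on all arrays, plus, for members above background on all 18 arrays with group means spanning at least 1 log2 unit, the 3 gene names of highest correlation. Some genes of the lists were counted but are not reported here by name. Leukocyte markers were well above background on all 18 arrays for 5 of 6 genes (log2 of the sum 10.63 to 11.70) and endothelial markers for 2 of 5 (8.25 to 8.84).

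Alternatives were offsets of 16 and 50, the processed signal scaled to the 75th percentile, normexp with that scaling, the mean of all probes, leaving out dim gene names, Benjamini-Hochberg adjustment, a fold minimum of 2, only the groups compared, slide or replicate number as a block, and leaving out each array. The 3 slides held 2, 8 and 8 arrays and several groups each. Same-numbered arrays deviated together, with every correlation above 0.1, for OXA against untreated in HT29 (0.117 to 0.242) and for OXA plus Curcumin against OXA in HTOXAR3 (0.109 to 0.195), where they also shared slides, and in no other comparison. Figures were drawn with matplotlib 3.10.9 under Python 3.11.15.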

Additional observations from a re-analysis of the deposited data

Results flagged for a closer look

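The lines differed in the response of ELF5 by the interaction test (positive where HTOXAR3 responded more). ELF5 responded less to OXA in HTOXAR3, by an interaction of -0.79 ± 0.11 (log2, SE; limma Benjamini-Yekutieli adjusted p = 0.0115), having risen by 1.93 in HT29 and by 1.14 in HTOXAR3. A further 2 of the 117 list genes were called in the interaction of line and OXA plus Curcumin, both with a lower response in HTOXAR3. CDH26, which is among them, was not well above background on any untreated HT29 array, so that a fall in HT29 could not be measured and no size is given.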

How the results depend on the processing

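No called difference of a member changed sign under any setting tried, and the within-slide values, 43 in all for 21 called differences, had 0 of opposite sign. Counts of members called that moved by over 1.5 times come first. With the processed signal it was 1 between the lines under OXA, 1 between the lines under OXA plus Curcumin, 0 for OXA in HT29 and 1 for OXA in HTOXAR3. Normexp with 75th percentile scaling, and likewise the mean of all probes, gave 0 for OXA in HT29 and 1 in HTOXAR3, where the scaling lost ZEB1 and the mean of all probes lost SNAI1. Leaving out dim gene names gave 1 for the interaction of line and OXA, and the Benjamini-Hochberg adjustment gave 4 between the lines under OXA, 1 for that interaction and 2 for the interaction with OXA plus Curcumin. With that adjustment 7228, 1087 and 1244 of all gene names were called in these comparisons, in the same order. A fold minimum of 2 gave 0 for OXA in each line and for added Curcumin in HT29, and 1 for added Curcumin in HTOXAR3, for the combination against untreated in each line and between the lines under the combination. Fitting only the groups compared gave the same counts and 1 between the untreated lines. Slide as a block gave 0 for OXA in HT29, 1 for OXA in HTOXAR3 and 1 for added Curcumin in HT29. Among the smaller moves, the combination against untreated in HT29 went from 3 to 2 with the processed signal, 75th percentile scaling, the mean of all probes and either block, and in HTOXAR3 from 4 to 5 with both offsets, without dim names and with Benjamini-Hochberg adjustment, and to 3 with the replicate block. Between the untreated lines the count was 3 with the processed signal, without dim names and with Benjamini-Hochberg adjustment. Under OXA it was 3 with the mean of all probes and without dim names, and under the combination 3 with Benjamini-Hochberg adjustment. Added Curcumin in HTOXAR3 gave 4 with both offsets, without dim names and with Benjamini-Hochberg adjustment, and 2 with either block, and in HT29 it gave 3 with Benjamini-Hochberg adjustment. An equal count can hold other genes: with added Curcumin in HTOXAR3, CDH1 took the place of VIM under the processed signal and 75th percentile scaling. Fitting only the groups compared kept CDH3 between the lines, VIM between the lines under OXA, SNAI1 with added Curcumin in HTOXAR3 and SNAI1 under the combination, and no other call.

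Replicate number as a block gave 0 members for OXA in HT29 (SNAI1 0.39, limma adjusted p = 0.0817) and 1 in HTOXAR3. Its other lost calls were VIM with added Curcumin in HTOXAR3 (0.0513) and CDH3 under the combination (0.0555 in HT29, 0.0508 in HTOXAR3).

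Leaving out each array in turn gave 2 to 2 members between the untreated lines and under OXA, 1 to 2 under the combination, 0 to 0 for OXA in HT29, 0 to 1 in HTOXAR3, 1 to 2 and 2 to 3 for added Curcumin in HT29 and HTOXAR3, 2 to 3 and 1 to 2 for the combination, and 0 to 1 for the interaction with OXA. The counts of list genes moved by over 1.5 times in 53 of 222 cases. With added Curcumin in HTOXAR3 that count was 22, against 3 with a fold minimum of 2 and 1 when only the groups compared were fitted. The median of all gene names shifted by -0.20 to 0.12 (log2) with the processed signal and by -0.16 to 0.15 with 75th percentile scaling. ZEB2, SNAI2 and TWIST1 were limited by signal near background. The cause of these shifts was not tested.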

Other observations

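The gene names whose profile over the 18 arrays was most like that of CDH3, by Pearson's r across arrays as a description, were B3GNT1 (now B4GAT1; 0.987), TTC7B (0.986) and CMC4 (0.986). For VIM they were TMEM136 (now TLCD5; 0.973), SIVA1 (0.956) and RANGRF (0.95), and for SNAI1 they were HACL1 (0.988), PSMD12 (0.984) and DEDD2 (0.98). The arrays fall into 6 groups, so each r follows the differences between groups.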
